A study of Oncorhynchus mykiss with 6 samples.

Results

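miR-143, miR-145, miR-199 and miR-214 are microRNAs known in mammals from vascular smooth muscle, hepatic stellate cells and other stromal cells. Their levels were followed in the whole liver of socially subordinate (SS) and socially dominant (SD) rainbow trout, where their cells of origin were not measured. Members were all sequences of the small RNA table whose name holds one of these 4 miRNA numbers, whatever the letters, arm or end variants that follow. The rule found 29 of the 1389 listed sequences, of which 3 belonged to miR-143, 5 to miR-145, 17 to miR-199 and 4 to miR-214. Small RNA libraries came from the livers of 3 SS fish (4A, 6A and 1B) and 3 SD fish (4B, 6B and 21A) after 4 d of interaction in pairs, with 1 library per fish, and values below follow this order of fish. All 6 fish were juvenile wild-type rainbow trout with the strain label Walbaum, and no untreated or unpaired fish was among these libraries. According to the study's text SD fish took nearly all of the food, SS fish in effect fasted, and cortisol was raised in SS fish, so status, feeding and cortisol cannot be told apart.

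In mammals miR-143 and miR-145 are cut from neighbouring hairpins of a shared primary transcript that is strongest in smooth muscle, where they hold back KLF4, ELK1 and other factors of the dividing state. miR-199a and miR-214 also share a transcript in mammals, the antisense RNA Dnm3os, which is made in mesenchymal cells. In the mammalian liver miR-122 marks hepatocytes, whereas miR-199a and miR-214 are known from activated stellate cells and fibrosis. Each hairpin yields a 5p and a 3p arm, and target choice rests mainly on the seed, bases 2 to 8 counted from the 5′ end.

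The most abundant form of each of the 8 arms is shown here, as deposited, with the seed in capitals, because nearly all reads of the 4 miRNAs were reads of these 8 sequences (99.7% of the 579168 member reads).
miR-143-3p, ccr-miR-143: tGAGATGAagcactgtagct
miR-143-5p, ssa-miR-143-5p_R+1: gGTGCAGTgctgcatctctggta
miR-145-3p, ssa-miR-145-3p_L+2R-1: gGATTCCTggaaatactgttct
miR-145-5p, ola-miR-145_L+1R+4: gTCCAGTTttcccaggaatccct
miR-199-3p, dre-miR-199-3p_L-1: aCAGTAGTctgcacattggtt
miR-199-5p, dre-miR-199-5p: cCCAGTGTtcagactacctgttc
miR-214-3p, ssa-miR-214-3p_L-1_1ss23AT: aCAGCAGGcacagacaggcagt
miR-214-5p, ssa-miR-214-5p: tGCCTGTCtacacttgctgtgc

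The 8 seeds differed from each other, so no leading form shared its seed with another arm. A name opens with the fish whose miRNA matched best (dre zebrafish, ssa Atlantic salmon, ola medaka, ccr carp), and closes with the bases gained or lost at the left (L) or right (R) end and any substitution. The arm was given by the name for 25 members, by a shared run of at least 12 bases for 3, and for the carp miR-143 by its being unlike the named 5p arm. Of the other 1360 sequences in the table, 2 named after miR-23 shared the seed of miR-145-3p with 18.0 reads in all, and none shared the seed of another leading form.

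Depth and tissue were checked before any comparison. The table held 1183289 to 3382970 counts per library, with SD 21A the deepest, and 63893 to 174537 of them were member reads. Counts are expected counts, since the authors divided reads that matched several listed sequences among those sequences, and 17 of the 29 members had a fractional count in at least 1 library. Levels are given as normalized reads, the authors' counts divided by a size parameter per library. Sums of normalized reads over the table ran from 1503647 to 2114400, so a level in normalized reads and a share of table reads can rank the fish differently. The hepatocyte miRNA miR-122 made up 38.2 ± 2.38% of table reads in SS fish and 37.8 ± 2.03% in SD fish (SD, n = 3 each), and its leading form was the most abundant of all listed sequences. Of its 5 tested sequences none was called, and the fitted log2 fold change, SS over SD, was above 0 for 3 and below 0 for 2. In 2 of the 5 all SS fish lay above all SD fish, beside 36 of the 338 tested sequences (10.7%). Summed normalized reads of the endothelial miR-126 ran from 15357 to 26223 in SS fish and 15920 to 19380 in SD fish, and those of the muscle miRNAs (miR-1, miR-133, miR-206, miR-208 and miR-499) from 169 to 179 in SS fish and 114 to 304 in SD fish, with miR-208 at 0. Erythrocyte miRNAs (miR-144 and miR-451) summed to 1822 to 7856 in SS fish and 4950 to 6719 in SD fish, and all 6 tested were fitted below 0 (median log2 fold change -0.31). Pancreas miRNAs (miR-216, miR-217 and miR-375) summed to 153 to 607 in SS fish and 193 to 226 in SD fish, and all 4 tested were fitted above 0 (median 0.89). None of these 10 was called. The 3 tested endothelial sequences were also all fitted above 0 (median 0.07), and the 3 tested neuron sequences all below 0 (median -0.17). Neither list had a sequence called, and leukocyte and epithelial sequences were fitted on both sides of 0. The part of these miRNAs in the results below was not tested, and summed leukocyte, epithelial and neuron miRNAs also overlapped between the groups. In whole liver, fewer cells of a type and less RNA per cell cannot be told apart.

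The 4 miRNAs together took 4.98 ± 0.716% of table reads in SS fish and 5.25 ± 0.127% in SD fish (SD, n = 3 each). Their shares of table reads were compared over fish by exact two-sided permutation tests, which with 3 fish against 3 cannot give a p under 0.1, and none of the 5 shares (4 miRNAs and their sum) passed, with adjusted p of 0.833 to 0.9. miR-199 took 3.30 ± 0.420% in SS fish and 3.46 ± 0.267% in SD fish, miR-143 took 1.04 ± 0.144% and 1.18 ± 0.150%, and miR-145 took 0.627 ± 0.154% and 0.604 ± 0.0125%. miR-214 was rare, at 0.00730 ± 0.00288% of table reads in SS fish and 0.0125 ± 0.00225% in SD fish. The share of the 4 miRNAs was lowest in SS 4A (4.31%, 95% Wilson interval 4.28 to 4.34%) and highest in SS 1B (5.73%, 5.70 to 5.77%), with the 3 SD fish between them, so SS fish differed more among themselves than the groups did. Against miR-122, their summed reads stood at 0.107, 0.127 and 0.161 in SS fish and at 0.136, 0.137 and 0.145 in SD fish, and this ratio also overlapped between the groups (difference of log2 ratios -0.10 ± 0.17 (SE), exact permutation p = 0.7, adjusted p = 0.8 over 4 ratios).

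By arm, with the forms of each arm summed, miR-199-5p was the most abundant at 54295 ± 6026 normalized reads (SD, n = 6), and its leading form ranked 5 among the 1389 sequences by mean level. It was followed by miR-143-3p (19832 ± 3926), miR-145-3p (7222 ± 1425), miR-199-3p (5798 ± 826), miR-145-5p (3749 ± 901), miR-214-3p (159 ± 65.4), miR-143-5p (122.2 ± 25.9) and miR-214-5p (17.4 ± 4.99). Within each of the 6 fish every arm exceeded the next in this order, except that miR-145-3p exceeded miR-199-3p in 4 fish and miR-214-3p exceeded miR-143-5p in 4 fish. In those 2 neighbouring pairs the ranges over fish overlapped, as did the ranges of miR-199-3p and miR-145-5p. No difference between arms was tested. These levels count reads of products of like length, and differences in ligation between sequences were not measured.

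**Figure D1:**
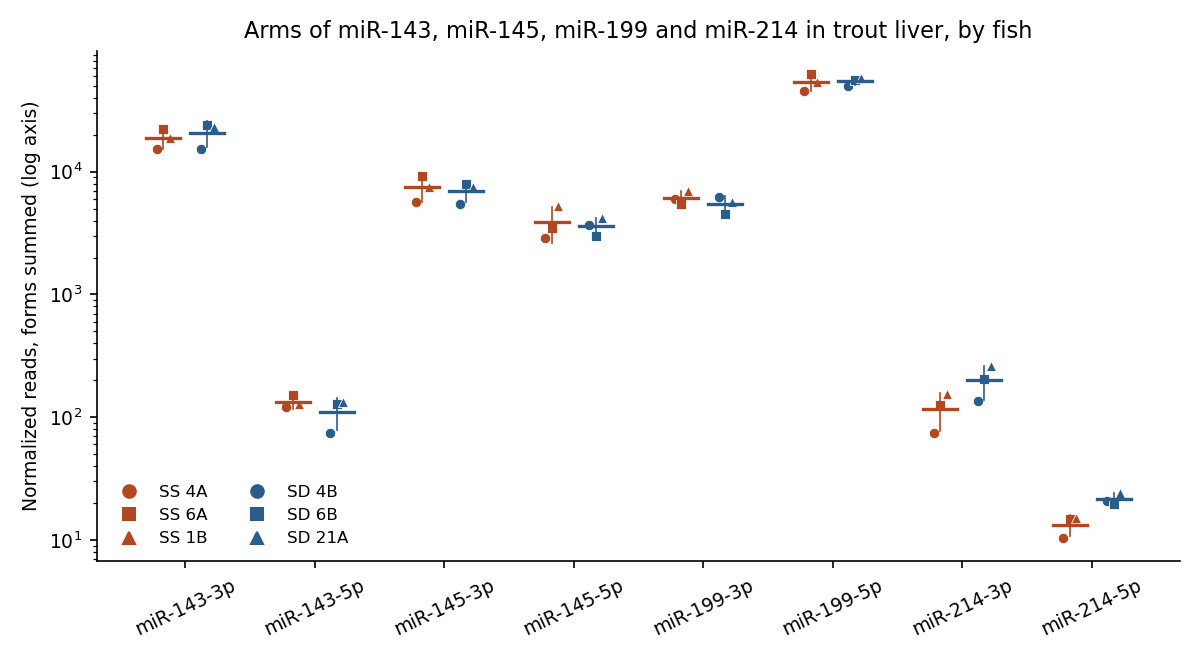
Normalized reads of each arm with its forms summed, on a log axis, for the 3 SS fish (left of each pair) and the 3 SD fish (right). Points are fish, horizontal bars are group means and vertical lines are 1 SD. miR-214-5p is the arm whose 3 SS fish all lay below the 3 SD fish.

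Of the 29 members, 14 had enough reads for the test by edgeR's filter (minimum count 10), and 15 were left out. The 15 held 189.8 reads in all, at most 74.0 each, and 5 of them had reads in every library, while 10 had under 10 reads in total. SS and SD fish were compared by edgeR's quasi-likelihood test, with p-values adjusted over all 338 sequences left by the filter, of which 2 (0.592%) passed an adjusted p under 0.05. None of the 14 members passed, none had an unadjusted p under 0.05, and none was called by DESeq2 or by limma. The lowest adjusted p among them was 0.449, shared by the leading forms of both miR-214 arms. With the forms of each arm summed, none of the 8 arms passed (lowest edgeR adjusted p = 0.470), against 2 of 332 sequences and arms (0.602%), and none had an unadjusted p under 0.05. The fitted log2 fold change, SS over SD, was above 0 for 8 of the 14 members and below 0 for 6, with a median of 0.03, beside a median of -0.02 over all 338. SS and SD fish did not overlap in normalized reads for 1 of the 14 members, the leading form of miR-214-5p, beside 62 of the 338 tested sequences (18.3%) in either direction.

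**Figure D2:**
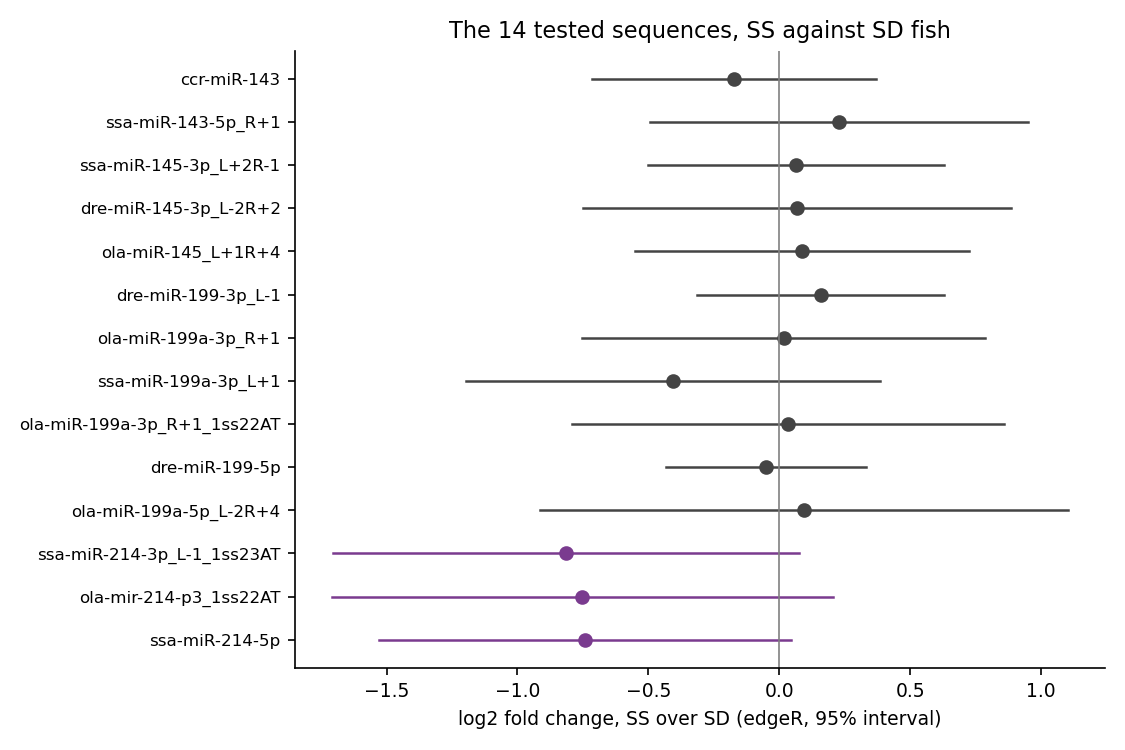
Fitted log2 fold change, SS over SD, of the 14 tested members with the 95% interval worked out from edgeR's quasi-likelihood F test. All 14 intervals span 0, and the 3 miR-214 sequences (purple) lie furthest to the left, between -0.81 and -0.74.

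miR-143-3p is the arm known from smooth muscle in mammals, and here almost every read of it was the carp form. ccr-miR-143 had 15389, 22324 and 18808 normalized reads in SS fish and 15262, 24202 and 23005 in SD fish. SS 4A and SD 4B were lowest, at nearly the same level, and the groups overlapped (log2 fold change -0.17 ± 0.23 (SE), 95% interval -0.72 to 0.37, edgeR adjusted p = 0.763). The 5p arm, the minor strand of this hairpin in mammals, was far rarer, with 121, 151 and 127 normalized reads in SS fish and 73.7, 127 and 132.5 in SD fish (ssa-miR-143-5p_R+1, log2 fold change 0.23 ± 0.31, 95% interval -0.49 to 0.95, edgeR adjusted p = 0.763). SD 4B was the lowest fish and the other 5 lay close together. Without SD 4B the fitted change of this arm form was -0.05. In the fit with arms summed, where its counts are the same, it was 0.037.

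The fitted changes of the miR-143 arms thus had opposite signs, and their ratio within each fish does not depend on how libraries are scaled. The log2 ratio of 5p to 3p reads was -6.99, -7.21 and -7.21 in SS fish and -7.69, -7.57 and -7.44 in SD fish. All 3 SS fish lay above all 3 SD fish, with 140 reads of the 3p arm per 5p read in SS fish and 190 in SD fish (geometric means). The difference of 0.43 ± 0.10 (SE) reached the smallest p that 3 against 3 allows (exact permutation p = 0.1) and did not pass after adjustment over the 4 arm ratios (adjusted p = 0.4). The 5p arm rested on 58.0 to 235.0 reads per library.

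miR-145 targets KLF4 and keeps smooth muscle contractile in mice. Its 3p arm had more reads than its 5p arm in all 6 fish. The leading 3p form, ssa-miR-145-3p_L+2R-1, had 5666, 9139 and 7489 normalized reads in SS fish and 5401, 7955 and 7538 in SD fish. SS 4A and SD 4B were again the lowest fish, and the groups overlapped (log2 fold change 0.06 ± 0.24, 95% interval -0.50 to 0.63, edgeR adjusted p = 0.920). The leading 5p form, ola-miR-145_L+1R+4, had 2880, 3455 and 5303 normalized reads in SS fish and 3680, 2969 and 4193 in SD fish (log2 fold change 0.09 ± 0.28, 95% interval -0.55 to 0.73, edgeR adjusted p = 0.911). SS 1B alone was high in this arm, and without it the fitted change was -0.23. The log2 ratio of 5p to 3p reads was -0.98, -1.41 and -0.50 in SS fish and -0.56, -1.42 and -0.85 in SD fish, so the balance of the arms ranged further within each group than the group means differed (difference -0.02 ± 0.36, exact permutation p = 1.0). The ratio of miR-143 to miR-145 reads was 1.81, 1.78 and 1.48 in SS fish and 1.68, 2.22 and 1.97 in SD fish, with overlapping groups (difference of log2 ratios -0.21 ± 0.15, exact permutation p = 0.3, adjusted p = 0.6 over 4 ratios).

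**Figure D3:**
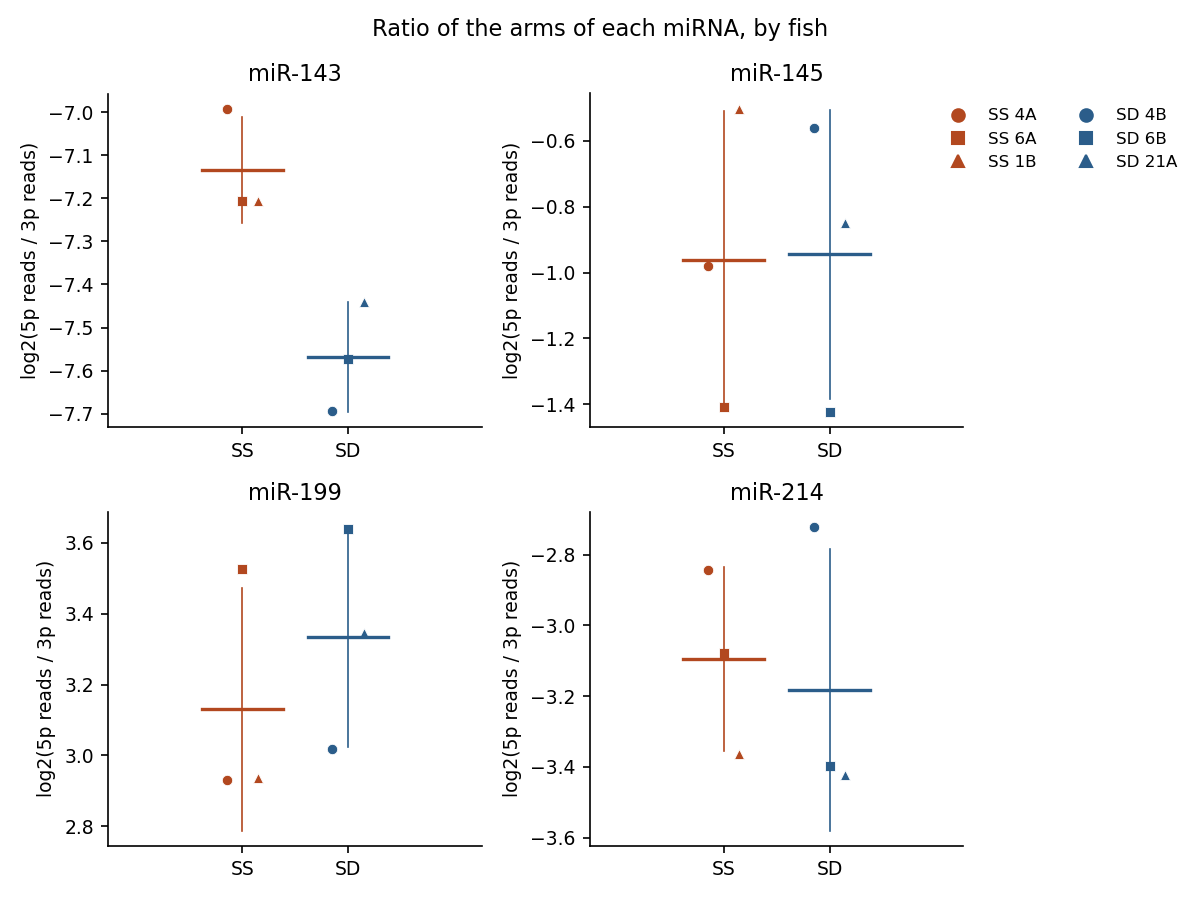
log2 ratio of 5p to 3p reads of each of the 4 miRNAs, for SS fish (left) and SD fish (right). Points are fish, horizontal bars are group means and vertical lines are 1 SD, and each panel has its own axis. The groups separate for miR-143, at -7.21 or above in SS fish and -7.44 or below in SD fish, and overlap for miR-145, miR-199 and miR-214.

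miR-199 was the most abundant of the 4, mainly through its 5p arm, which in mammals represses caveolin-1 in fibroblasts. dre-miR-199-5p had 45224, 62584 and 53566 normalized reads in SS fish and 50338, 56305 and 57543 in SD fish. The extremes were both SS fish, 4A low and 6A high, and the SD fish lay between them (log2 fold change -0.05 ± 0.16, 95% interval -0.43 to 0.33, edgeR adjusted p = 0.911). Its SD over the 6 fish was 0.16 on the log2 scale, and 2.37% of the 338 tested sequences varied less, beside a median SD of 0.46 over all of them. Most of these sequences had far fewer reads, and sequences of like abundance were not compared. The 3p arm, a strand that is also used in mammalian liver, had 5736, 5253 and 6785 normalized reads in SS fish and 5942, 4360 and 5463 in SD fish for its leading form, dre-miR-199-3p_L-1 (log2 fold change 0.16 ± 0.20, 95% interval -0.31 to 0.63, edgeR adjusted p = 0.763). SD 6B was lowest and SS 1B highest, and the groups overlapped. The 5p arm outnumbered the 3p arm 7.62, 11.5 and 7.65 times in SS fish and 8.11, 12.5 and 10.2 times in SD fish, with 6A and 6B highest in their groups (difference of log2 ratios -0.20 ± 0.27, exact permutation p = 0.5, adjusted p = 1.0 over 4 ratios).

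The 17 miR-199 sequences were mostly rare variants of these leading forms, and 6 passed the filter. A pair of 3p forms with a longer 3′ end, identical to the leading form over its whole length, is shown because they kept its seed and yet could be told apart from it.
ola-miR-199a-3p_R+1: aCAGTAGTctgcacattggttat
ola-miR-199a-3p_R+1_1ss22AT: aCAGTAGTctgcacattggtttt
The first had 81.9, 60.2 and 82.0 normalized reads in SS fish and 99.6, 55.0 and 66.5 in SD fish (log2 fold change 0.02 ± 0.33, edgeR adjusted p = 0.973). The second, whose 2 additional bases are both T, had 61.7, 42.4 and 56.9 normalized reads in SS fish and 69.6, 37.7 and 48.3 in SD fish (log2 fold change 0.03 ± 0.36, edgeR adjusted p = 0.962). In both, the lowest fish of each group was number 6, as for the leading 3p form.

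A form whose 5′ end is shifted carries another seed and so could be read by another set of targets. Of such forms, 3 had enough reads for the test.
dre-miR-145-3p_L-2R+2: aTTCCTGGaaatactgttcttt
ssa-miR-199a-3p_L+1: cACAGTAGtctgcacattggtt
ola-miR-199a-5p_L-2R+4: cAGTGTTCagactacctgttcatt
dre-miR-145-3p_L-2R+2, which starts 2 bases later than the leading form, had 18.7, 31.7 and 23.3 normalized reads in SS fish and 26.7, 19.6 and 22.0 in SD fish (log2 fold change 0.07 ± 0.35, edgeR adjusted p = 0.936). ola-miR-199a-5p_L-2R+4, which also starts 2 bases later, had 34.1, 18.7 and 16.2 normalized reads in SS fish and 20.3, 28.1 and 16.4 in SD fish (log2 fold change 0.09 ± 0.43, edgeR adjusted p = 0.931). Neither separated the groups, and in each the lowest and the highest fish were both SS. ssa-miR-199a-3p_L+1, which starts 1 base earlier, had 39.8, 74.9 and 61.8 normalized reads in SS fish and 91.5, 59.9 and 77.8 in SD fish, with the lowest fish in SS and the highest in SD (log2 fold change -0.41 ± 0.34, 95% interval -1.20 to 0.38, edgeR adjusted p = 0.641).

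Shifted 5′ ends were then counted as a share of each arm's reads, in the 4 arms that had at least 10 such reads. In miR-199-3p, 3 shifted forms together made up 0.970, 1.48 and 1.07% of the arm in SS fish and 1.62, 1.54 and 1.57% in SD fish, from 56.0 to 157.5 shifted reads per library. The SS fish lay below the SD fish without overlap, SS 6A coming close. The 95% Wilson intervals of these shares, which like the others cover counting error only, were 0.769 to 1.22%, 1.14 to 1.92% and 0.862 to 1.33% in SS fish and 1.30 to 2.01%, 1.19 to 1.99% and 1.35 to 1.83% in SD fish, so at this depth that of SS 6A spanned all 3 SD values. The difference of -0.40 ± 0.16 percentage points (SE) had an exact permutation p of 0.1, the smallest possible, and an adjusted p of 0.4 over the 4 arms. Of the 499.5 shifted reads, 425.0 were ssa-miR-199a-3p_L+1, whose normalized reads overlapped between the groups. An untested form held 74.0 and averaged 12.1 normalized reads in SS fish and 9.89 in SD fish. The separation is that of the summed share, and shares of single forms were not compared. In the other 3 arms the shifted share was under 0.5% in every fish and the groups overlapped. It averaged 0.328 ± 0.0178% in SS fish and 0.350 ± 0.124% in SD fish for miR-145-3p, 0.0649 ± 0.0329% and 0.0751 ± 0.0599% for miR-145-5p, and 0.0508 ± 0.0253% and 0.0473 ± 0.0109% for miR-199-5p (SD, n = 3 each). Reads of near-identical forms were shared out by the authors' counting, so the split between them is uncertain.

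miR-214, which in mice is carried between stellate cells in exosomes and represses the fibrosis factor CCN2, had the lowest fitted values of the 4 miRNAs in SS fish, without passing the test. Its leading 3p form, ssa-miR-214-3p_L-1_1ss23AT, had 62.1, 110 and 130 normalized reads in SS fish and 116, 177 and 226 in SD fish. SS 4A was the lowest fish and SD 21A the highest, while SS 1B exceeded SD 4B (log2 fold change -0.81 ± 0.38, 95% interval -1.70 to 0.08, edgeR adjusted p = 0.449). A 3p form with 1 more base at its 3′ end followed the same order of fish and is shown because it repeats the pattern.
ola-mir-214-p3_1ss22AT: aCAGCAGGcacagacaggcagtt
It had 12.2, 14.4 and 23.8 normalized reads in SS fish and 20.3, 29.3 and 33.8 in SD fish (log2 fold change -0.75 ± 0.41, 95% interval -1.71 to 0.20, edgeR adjusted p = 0.514). The 2 forms share their first 22 bases, and so they are not independent measurements. The 5p arm, ssa-miR-214-5p, had 10.3, 14.8 and 14.5 normalized reads in SS fish and 20.6, 19.6 and 24.2 in SD fish (log2 fold change -0.74 ± 0.34, 95% interval -1.53 to 0.05, edgeR adjusted p = 0.449). All 3 SS fish lay below all 3 SD fish, beside 26 of the 338 tested sequences (7.69%) that did so. Summed over forms, the 5p arm rested on 10.2 to 43.0 reads per library and the 3p arm on 86.5 to 461.5, the highest count of each being in SD 21A, the deepest library.

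Within each fish, reads of miR-199 outnumbered those of miR-214 by 605, 488 and 359 times in SS fish and by 361, 270 and 222.3 times in SD fish. SS 1B and SD 4B stood at almost the same ratio and were the fish at which the groups met (difference of log2 ratios 0.76 ± 0.30, exact permutation p = 0.2, adjusted p = 0.6 over 4 ratios). The balance of the miR-214 arms itself did not separate the groups, at log2 ratios of 5p to 3p reads of -2.84, -3.08 and -3.36 in SS fish and -2.72, -3.40 and -3.42 in SD fish (difference 0.09 ± 0.27, exact permutation p = 0.8, adjusted p = 1.0). Nor did the ratio of miR-143 with miR-145 to miR-199 with miR-214, which was 0.469, 0.515 and 0.523 in SS fish and 0.431, 0.577 and 0.549 in SD fish (difference of log2 ratios -0.04 ± 0.14, exact permutation p = 0.8, adjusted p = 0.8).

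**Figure D4:**
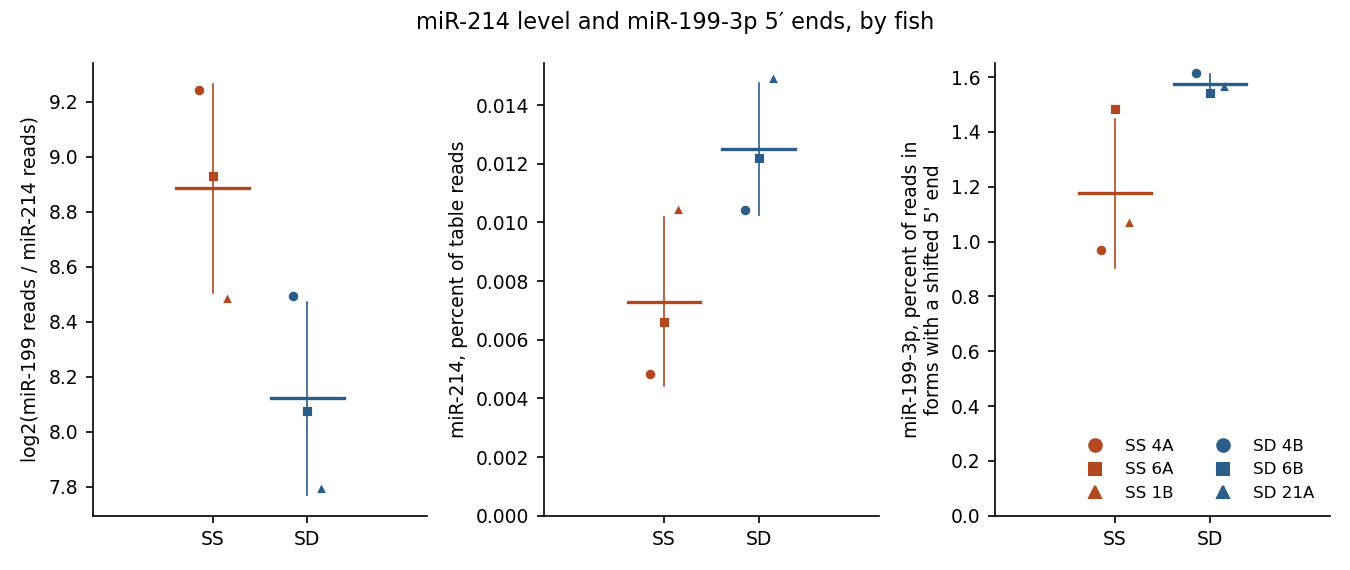
From left to right, the log2 ratio of miR-199 to miR-214 reads, the percent of table reads taken by miR-214, and the percent of miR-199-3p reads in forms with a shifted 5′ end, for SS fish (left) and SD fish (right). Points are fish, horizontal bars are group means and vertical lines are 1 SD. The 1st and 2nd panels overlap at SS 1B and SD 4B, whereas in the 3rd the 3 SS fish lie at 1.48% or below and the 3 SD fish at 1.54% or above.

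Whether arms of 1 miRNA number, or of miRNAs that share a transcript in mammals, moved together was examined over the 6 fish. The scale was log2(normalized reads + 1), in 6 relations with exact permutation p-values over the 720 orders of the fish. miR-143-3p and miR-145-3p had the highest r of the 6 (Pearson r = 0.89, permutation p = 0.0264, adjusted p = 0.0792; Spearman rho = 0.83, permutation p = 0.0583, adjusted p = 0.35). Within groups, as deviations from the group means, r was 0.97. The permutations treat all 6 fish as independent and exchangeable, across groups and whether or not a shared fish number marks a pair. Without SS 4A and SD 4B, the low fish farthest from the median of miR-143-3p, which share a number, r was 0.30 over 4 fish. Leaving out the most extreme fish also narrows the range, so whether the relation rests on those fish cannot be decided here. miR-143-3p and miR-199-5p, which come from different transcripts in mammals, had a similar value on this scale (r = 0.85, permutation p = 0.025, adjusted p = 0.0792; rho = 0.71, permutation p = 0.136, adjusted p = 0.408), with r = 0.86 within groups and 0.49 without the same fish. On percent of table reads r was 0.77 for miR-143-3p with miR-145-3p and 0.51 for miR-143-3p with miR-199-5p, so both values depended on the scaling. None of the 6 relations passed after adjustment.

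Among the 6, the pair of miR-145 arms and the pair of miR-199 arms each join the 5p and 3p arms of 1 miRNA number. The others join different numbers. Reads were summed by number, and from which hairpin copies in the genome they came was not determined. miR-145-5p and miR-145-3p had r = 0.18 (permutation p = 0.728, adjusted p = 0.873) and rho = -0.09 (permutation p = 0.919, adjusted p = 1.0), and r was -0.28 without SS 1B and SS 4A and 0.17 within groups. miR-143-3p and miR-145-5p had r = 0.05 (permutation p = 0.935, adjusted p = 0.935) and rho = -0.03 (permutation p = 1.0), with r = -0.88 without SD 4B and SS 4A and 0.08 within groups. miR-199-5p and miR-199-3p had r = -0.39 (permutation p = 0.465, adjusted p = 0.698) and rho = -0.60 (permutation p = 0.242, adjusted p = 0.483), with r = -0.55 without SS 4A and SS 6A and -0.38 within groups. On percent of table reads in place of normalized reads the r of the miR-199 arms was 0.43, so its sign followed the scaling. miR-199-5p and miR-214-3p had r = 0.62 (permutation p = 0.174, adjusted p = 0.347) and rho = 0.43 (permutation p = 0.419, adjusted p = 0.629), with r = 0.95 without SS 4A and SS 6A and 0.75 within groups. After these values were seen, the arms of miR-143 and of miR-214 were added, with p-values adjusted over 8 relations. miR-214-3p and miR-214-5p had r = 0.89 (permutation p = 0.0181, adjusted p = 0.0704) and rho = 0.83 (permutation p = 0.0583, adjusted p = 0.233), with r = 0.41 without SS 4A and SD 21A, 0.83 within groups and 0.88 on percent of table reads. miR-143-3p and miR-143-5p had r = 0.69 (permutation p = 0.0472, adjusted p = 0.0944) and rho = 0.60 (permutation p = 0.242, adjusted p = 0.387), with r = 0.16 without SD 4B and SS 4A, 0.94 within groups and 0.28 on percent of table reads. No difference between relations was tested, and all these points share their library and its scaling.

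**Figure D5:**
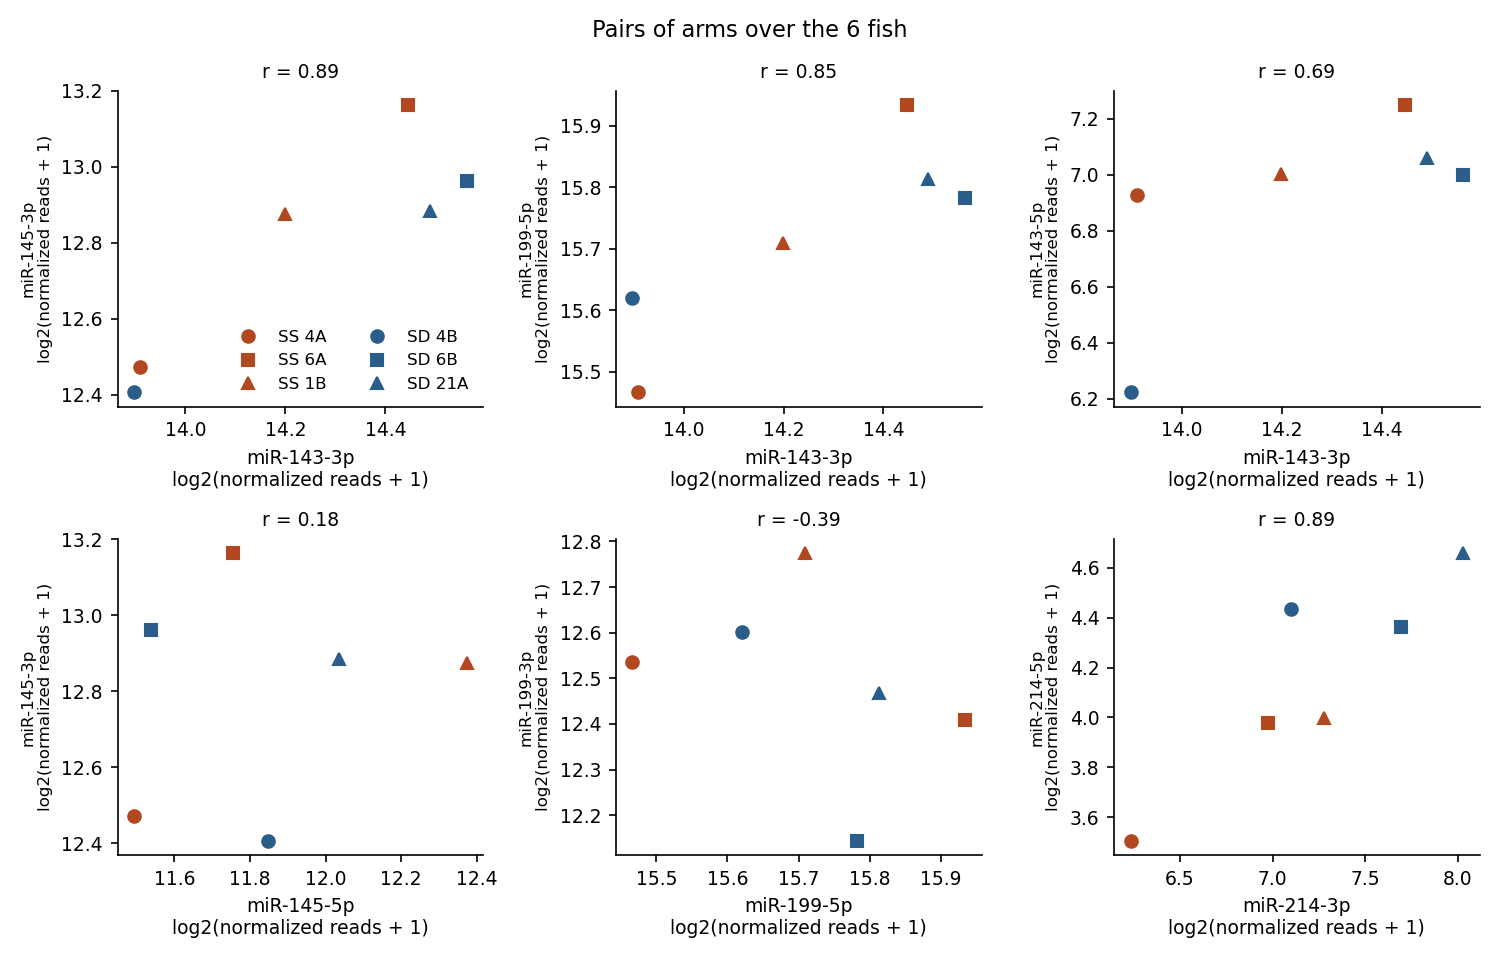
Pairs of arms over the 6 fish, each axis being log2(normalized reads + 1) with the forms of an arm summed, and Pearson r above each panel. SS fish are red and SD fish blue. SS 4A and SD 4B lie leftmost in the miR-143-3p panels, and r between the arms of a hairpin was 0.69 for miR-143, 0.18 for miR-145, -0.39 for miR-199 and 0.89 for miR-214.

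Sequences with the most similar pattern over the 6 fish were sought for the leading form of each miRNA among all tested sequences of other miRNA numbers, as a description by Pearson r of log2(normalized reads + 1). ccr-miR-143 was most like dre-miR-27b-3p_R-1 (r = 0.95), dre-miR-99_R+1_1ss16TG (0.94) and fru-miR-27b_R+1 (0.93). ssa-miR-145-3p_L+2R-1 was most like ssa-miR-194a-3p_R-2 (r = 0.93), dre-miR-27c-3p (0.92) and dre-miR-199-5p (0.90), and dre-miR-199-5p in turn was most like ssa-miR-194a-3p_R-2 (0.93), ssa-miR-145-3p_L+2R-1 (0.90) and the predicted sequence PC-5p-7435_71 (0.90). ssa-miR-214-3p_L-1_1ss23AT was most like dre-miR-27b-5p_R-1 (r = 0.97), ipu-miR-125a (0.97) and ssa-miR-181b-5p_R-1 (0.96). Each of these was among the 3 highest r of 332 to 336 sequences compared, over 6 fish that share their scaling.

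Other miRNAs known from liver fibrosis and stellate cells in mammals were listed by number (miR-15, miR-16, miR-19, miR-21, miR-29, miR-30, miR-34, miR-150, miR-194, miR-221 and miR-222). This list, which includes miR-21 and miR-29, was chosen with earlier results of these data known. Its counts and sum are therefore a description and not a test of the list. Of its 151 sequences 48 were tested, with a median log2 fold change of 0.02, beside -0.02 over all 338. The 2 that passed were both higher in SS fish. They were also the 2 sequences called in the whole table. pol-miR-21-3p_R-1_1ss14AT, by its name a 3p arm of miR-21, had a log2 fold change of 2.92 (edgeR adjusted p = 0.0213). ssa-miR-29b-2-5p_L-2, by its name a 5p arm of the miR-29 family, had 1.63 (edgeR adjusted p = 0.0213). Normalized reads summed over the list ran from 153394 to 167582 in SS fish and from 127318 to 145281 in SD fish, without overlap, a sum that abundant members can carry. Fitted values were above 0 for 26 of the 48 and below 0 for 22, and SS fish lay wholly above SD fish in 10 and wholly below in 3, beside 36 (10.7%) and 26 (7.69%) of the 338. Of the 9 heart and skeletal muscle sequences 2 were tested, with fitted values above 0 for 1 and below 0 for 1, and neither passed.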

How the data were processed

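Per the study's methods and the submitters' notes, the authors cut adapters, kept inserts of 15 to 32 nt, and assigned them with ACGT10-miR and Bowtie 1.1.1 to fish miRNAs of miRBase and to the rainbow trout genome. They deposited expected counts per sequence and library, and a normalized signal, called normalized reads here, which is these counts divided by a size parameter per library. A count of 0, deposited as 0.001 in the normalized signal, was read as 0. How the parameter was derived is not given in the sources used here. A deposited summary gives raw and mappable read counts per library. Members and lists were chosen with earlier results of these data known.

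For the test, expected counts were rounded. edgeR 4.0.16 in R 4.3.3 filtered them (filterByExpr, minimum count 10), normalized by TMM and tested SS against SD with 3 fish each, with Benjamini-Hochberg adjustment at 0.05. The procedure was also run on simulated counts. The changes put in were larger than any fitted for a member, so that run does not show whether changes of the members' size would be called. Ratios, shares and relations were tested in Python 3.11.15 by exact two-sided permutation over fish. Named were the tested members, the 3 sequences most like each leading form, miR-122 and, after their values were seen, the 2 sequences called. Intervals are 95%. DESeq2 1.42.0 and limma 3.58.1 were among the alternatives. Sequences come from the deposited table, and no genome position was assigned. Real-time RT-PCR and tissue assays were not analysed here. P-values set differences against variation between these fish, and those of edgeR also draw on variation pooled over all tested sequences.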

Additional observations from a re-analysis of the deposited data

How the results depend on the processing

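No member or arm passed the adjusted threshold under any of the 15 alternatives, and the 3 miR-214 sequences and both miR-214 arms stayed lower in SS fish in each fit that tested them. Over the whole table, 2 sequences were called, against 7 by DESeq2, 18 with no filter on low counts, 0 with the replicate block and 0 to 6 with 1 library left out. Fish numbers 4 and 6 occur in both groups, but the labels do not say that they mark pairs. Deviations from the group means correlated at 0.13 for the fish numbered 4 and 0.44 for those numbered 6. For SS and SD fish of unlike number the correlation ran from -0.37 to 0.30. The block rests on 2 shared numbers and is an alternative only. With the replicate block the fitted log2 fold change was -0.11 for ola-miR-145_L+1R+4, -0.12 for ola-miR-199a-3p_R+1, -0.066 for ola-miR-199a-3p_R+1_1ss22AT, -0.053 for miR-145-5p summed and 0.014 for miR-199-5p summed, each of the opposite sign to the value without it. With a minimum count of 50, ola-miR-199a-3p_R+1 stood at -0.00059. As a share of mappable reads, miR-145 was lower in SS fish by -0.0261 percentage points, and on percent of table reads r of the miR-199 arms was 0.43. The cause was not tested in these cases.

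Leaving out 1 library at a time turned the sign of some uncalled values. Among these, the log2 fold change ran from -0.050 to 0.36 for ssa-miR-143-5p_R+1, from -0.15 to 0.26 for ssa-miR-145-3p_L+2R-1, from -0.14 to 0.26 for dre-miR-145-3p_L-2R+2, from -0.23 to 0.28 for ola-miR-145_L+1R+4, from -0.16 to 0.22 for ola-miR-199a-3p_R+1, from -0.15 to 0.23 for ola-miR-199a-3p_R+1_1ss22AT, from -0.17 to 0.088 for dre-miR-199-5p and from -0.29 to 0.32 for ola-miR-199a-5p_L-2R+4. Summed by arm it ran from -0.33 to 0.0028 for miR-143-3p, from -0.082 to 0.28 for miR-145-3p, from -0.24 to 0.31 for miR-145-5p and from -0.15 to 0.11 for miR-199-5p. For the summed arms the whole table was normalized and fitted anew. Hence miR-143-5p summed, with the same counts as ssa-miR-143-5p_R+1, did not turn. Nor did ccr-miR-143, with almost every read of miR-143-3p, although that sum did. These signs depend on the fit. Differences of log2 ratios ran from -0.26 to 0.20 for the miR-145 arms, from -0.038 to 0.32 for the miR-214 arms, from -0.17 to 0.045 for miR-143 with miR-145 to miR-199 with miR-214, and from -0.26 to 0.038 for the 4 miRNAs to miR-122. Differences in share of table reads ran from -0.0609 to 0.0913 percentage points for miR-145, from -0.382 to 0.0315 for miR-199 and from -0.657 to 0.0547 for all 4. Differences in shifted 5′ ends ran from -0.0670 to 0.0485 percentage points for miR-145-3p, from -0.0306 to 0.0241 for miR-145-5p and from -0.0112 to 0.0107 for miR-199-5p. The arm ratio of miR-143 (0.36 to 0.50) and the shifted share of miR-199-3p (-0.55 to -0.30 percentage points) kept their sign. Where the groups do not overlap, leaving out a fish cannot turn the sign, so this is no separate evidence for either difference. Without turning, the log2 fold change ran from -0.41 to -0.018 for ccr-miR-143, from 0.030 to 0.25 for dre-miR-199-3p_L-1, from -0.59 to -0.16 for ssa-miR-199a-3p_L+1, from 0.037 to 0.38 for miR-143-5p summed and from 0.012 to 0.27 for miR-199-3p summed. Those of miR-214 ran from -1.09 to -0.53 for ssa-miR-214-3p_L-1_1ss23AT, from -1.12 to -0.53 for ola-mir-214-p3_1ss22AT and from -0.84 to -0.58 for ssa-miR-214-5p, and summed by arm from -1.09 to -0.50 (3p) and from -0.85 to -0.50 (5p), each nearest to 0 without SS 4A. miR-214-5p had at most 43.0 reads per library.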
